A study of Mus musculus with 2 samples.

Results

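Amino acid transporter genes of 7 solute carrier families were read on 2 arrays from mouse embryonic stem cells, 1 culture with the genotype MOF +/+ (wild type) and 1 culture with MOF-/- (Mof null). The members were all probe sets annotated to a single gene named Slc1a, Slc3a, Slc6a, Slc7a, Slc36a, Slc38a or Slc43a with a number, without antisense transcripts: 118 of the 45101 probe sets of the array, for 58 genes of 18194. Mof, whose gene symbol is Kat8, is an acetyltransferase of histone H4. Both lines were of the strain C57BL/6, came from embryos at 3.5 days post coitum, were kept on mouse embryonic fibroblast feeders with LIF, and were used at passage 15 to 18 after 2 passages on plates without feeders. The labels name no added agent. Whether a line is 1 clone, and how the Mof allele was deleted, was not stated in the sources used here.

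These carriers move amino acids and some related small molecules across membranes. Slc7 light chains work as exchangers and need a heavy chain of the Slc3 family to reach the cell surface, while Slc7 cationic amino acid transporters (the CAT subfamily) work alone. Slc1 and Slc38 carriers use the sodium gradient, many Slc6 carriers use sodium and chloride, and some Slc36 carriers, such as Slc36a1, are coupled to protons. Some Slc43 carriers, such as Slc43a1, take large neutral amino acids by facilitated diffusion. Glutamine, leucine, threonine and arginine feed the growth and the one-carbon metabolism of mouse embryonic stem cells. Amino acid shortage acts through the kinase Gcn2 and the transcription factor Atf4, which induces several of these carriers, and supply is read at the lysosome by mTORC1.

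Promoter sequence is shown for 4 members whose values are described below, to show which carry the letters that Atf4 is known to bind: Slc7a7 and Slc43a1, higher on the array labelled Mof null, Slc36a4, lower on it, and Slc7a11, a known Atf4 target below the expression threshold on both arrays. Each is the 250 bases before a RefSeq transcript start (GRCm38.p6), 5′ to 3′ on the gene's strand, and the first of the windows listed for the gene. They lie at chr14:54417945-54418194 (minus strand) for Slc7a7, chr3:50443614-50443863 (minus) for Slc7a11, chr2:84840073-84840322 (plus) for Slc43a1 and chr9:15709488-15709737 (plus) for Slc36a4. Capitals mark matches on either strand to TGATGNAA (the C/EBP-ATF response element), CACGTG (the E-box) or TGACNNNGC (the antioxidant response element).
Slc7a7: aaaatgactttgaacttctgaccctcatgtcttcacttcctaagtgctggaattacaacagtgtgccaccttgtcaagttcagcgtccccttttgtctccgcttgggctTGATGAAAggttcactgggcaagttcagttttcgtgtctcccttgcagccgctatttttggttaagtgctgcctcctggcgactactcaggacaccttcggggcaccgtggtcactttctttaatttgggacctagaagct
Slc7a11: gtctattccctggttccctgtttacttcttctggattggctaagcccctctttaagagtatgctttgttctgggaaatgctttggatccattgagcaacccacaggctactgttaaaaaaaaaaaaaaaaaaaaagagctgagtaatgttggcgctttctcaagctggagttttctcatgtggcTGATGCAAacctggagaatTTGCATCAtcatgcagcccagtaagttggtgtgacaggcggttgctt
Slc43a1: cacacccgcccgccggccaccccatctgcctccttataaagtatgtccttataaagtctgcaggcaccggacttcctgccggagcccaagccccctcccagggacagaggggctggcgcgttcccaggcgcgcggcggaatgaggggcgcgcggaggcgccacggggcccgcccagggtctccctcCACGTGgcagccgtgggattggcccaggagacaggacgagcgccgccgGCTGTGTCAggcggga
Slc36a4: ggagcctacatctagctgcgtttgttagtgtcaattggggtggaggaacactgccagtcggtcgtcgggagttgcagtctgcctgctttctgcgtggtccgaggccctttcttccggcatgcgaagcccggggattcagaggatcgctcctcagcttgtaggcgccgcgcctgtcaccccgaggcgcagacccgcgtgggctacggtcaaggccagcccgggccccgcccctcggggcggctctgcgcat
Slc7a11 held TGATGNAA in both orientations, 66 and 47 bases before the start, and Slc7a7 held it 141 bases before the start shown. Slc43a1 held an E-box 64 bases and an antioxidant response element 16 bases before its start, and Slc36a4 held none of the 3 letter strings. Of the 58 members 41 had a sequence, with 62 windows. The other 17, among them Slc7a5, Slc7a3 and Slc1a5, were not searched. TGATGNAA was found in 4 of these windows (6.45%) against 3.45% of all 32851 windows, and belonged to Slc7a7, Slc7a11 and Slc6a21. Slc7a7 held it in more than 1 of its windows, so that gene is counted repeatedly in the window share. By gene, 3 of 41 held it, and of 19 expressed members with a sequence only 1, Slc7a7. The E-box was found in 14.5% of member windows against 6.02% of all, and the antioxidant response element in 14.5% against 10.2%. No member window had overlapping matches of different motifs. A match is a description of letters, and binding was not measured.

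Values are RMA values on a log2 scale, and every difference is the Mof null value less the wild type value, going by the arrays' labels. A gene is given by its brightest probe set, and it counts as expressed when the higher of its 2 values reaches 6.02, the median of all values of both arrays. With 1 array per genotype no test was possible, and a gene was counted when it differed by at least 2-fold. The only spread available was that between probe sets of the same gene, with a pooled SD of 0.33 over 5362 genes with several expressed probe sets. It holds no variation between cultures. In bulk RNA, fewer cells of a type and less RNA per cell cannot be told apart.

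The targeted gene and cell type markers were read first. Kat8 read 8.06 under the wild type label and 8.37 under the Mof null label, by 1 probe set whose place relative to the deletion is not given, so that value does not check the labels, and the markers bear on the cell type, not on the genotype. All 28 pluripotency markers were expressed on both arrays and lay above 0, with a median difference of 0.61. As background for these counts, 56.7% of all 12015 expressed genes lay above 0, 5.09% were 2-fold higher and 11.9% 2-fold lower. All 27 fibroblast markers found were lower on the array labelled Mof null, 26 of them by 2-fold or more. They had a median of -1.93 and a summed linear level 3.31-fold lower. All 16 expressed macrophage markers were lower too, 15 of them by 2-fold or more, and had a median of -2.09 and a summed linear level 3.61-fold lower. No fibroblast marker was under the expression threshold on either array. Of all 17 macrophage markers found, 1 was under it for wild type and 3 for Mof null. Ptprc and Itgam, both among the 15, read 8.10 and 6.64 for wild type and 5.33 and 4.81 for Mof null. They count as expressed only through the wild type array, where they read higher. Of 17 expressed extraembryonic endoderm markers, 9 were at least 2-fold higher (background 5.09%), none was 2-fold lower (background 11.9%) and 5 lay below 0. Their summed linear level was 1.05 times as high for wild type as for Mof null. Of all 18 found, 3 were under the threshold for wild type and 1 for Mof null. Apoa1 and Hnf4a, both among the 9, read 5.33 and 5.97 for wild type and 6.36 and 7.10 for Mof null. They count as expressed only through the array where they read higher. The part of these shifts in any carrier difference below was not tested.

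Of the 58 carrier genes, 31 were expressed and 27 were not. The expressed carriers lay mostly above 0 as deposited, with 4 past 2-fold upward and 1 downward. These counts depended on the scaling: they were 2 and 1 after centring and after trend correction, and 0 and 4 relative to the median of the pluripotency markers. Over all 12015 expressed genes they were 449 and 1595 after centring and 472 and 1593 after trend correction. Relative to that median they were 88 and 2956. At least 2-fold higher were Slc7a9, Slc7a7, Slc43a1 and Slc38a4, which is 12.9% of the expressed members, where the background over 12015 expressed genes was 5.09%. At least 2-fold lower was Slc36a4, 3.23% of the members, where the background was 11.9%. At 1.5-fold, 9 members were higher (29.0%, background 17.3%) and 1 was lower (3.23%, background 19.2%), where 36.5% of all expressed genes passed 1.5-fold in either direction. At 2-fold that background was 17.0%. In all, 22 of 31 were above 0 (71.0%, background 56.7%). The members' median difference was 0.40, and that of all expressed genes 0.10. Relative to the median of the pluripotency markers, which subtracts 0.61 from every gene and moves the median of all expressed genes to -0.51, the members' median was -0.21, and 9 of 31 stayed above 0 where 16.1% of all expressed genes did. Of the 31, 29 reached the threshold on both arrays. Slc7a9 and Slc36a2 passed it on the array labelled Mof null alone, that is, through the array where they read higher. Without them 3 of 29 members were 2-fold higher and the members' median was 0.38.

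**Figure D1:**
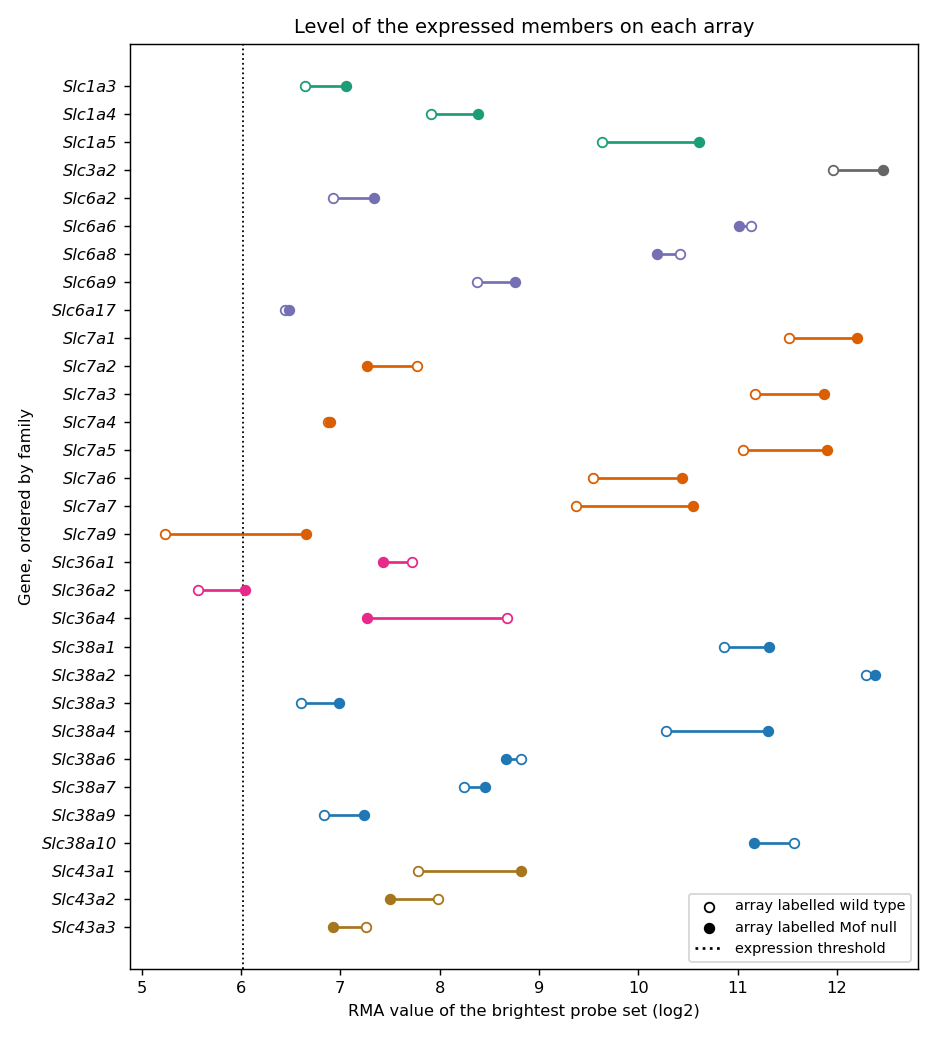
RMA value (log2, x axis) of the brightest probe set of each of the 31 expressed carriers (y axis, coloured by family) for the wild type label (open) and the Mof null label (filled), with the expression threshold of 6.02 dotted. Most filled points lie to the right, Slc36a4 has the longest line to the left, and levels of different genes are not comparable because each probe set has its own response.

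The heavy chain Slc3a2 and its expressed light chains Slc7a5, Slc7a6 and Slc7a7 were all higher on the array labelled Mof null. Slc3a2 (Entrez gene 17254), the CD98 heavy chain, read 11.96 for wild type and 12.46 for Mof null, in the order used for all pairs of values below, a difference of 0.50 or 1.41-fold on its only probe set. The other heavy chain, Slc3a1, the partner of Slc7a9, was below the threshold on both arrays at 4.62 and 4.29. Slc3a2 lay above 0 as deposited and at -0.11 relative to the pluripotency median, whereas the 4 expressed light chains, counting Slc7a9, stayed above 0 on both scales.

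Among light chains, Slc7a9, Slc7a7, Slc7a6 and Slc7a5 were expressed, and all 4 were at least 1.5-fold higher (background 17.3%). Their median was 1.04, where that of all expressed genes was 0.10. Without Slc7a9, which passed the level threshold on the array labelled Mof null alone, the median of the other 3 was 0.89. Slc7a5 (LAT1, Entrez gene 20539), which imports leucine and other large neutral amino acids, read 11.05 and 11.90, 1.80-fold higher. Slc7a6 (y+LAT2), which exchanges cationic for neutral amino acids, read 9.55 and 10.44, 1.86-fold higher, and its second probe set differed by 0.86. Its close relative Slc7a7 (y+LAT1, Entrez gene 20540) read 9.37 and 10.55, 2.27-fold higher, and its second probe set gave 8.29 and 9.28. These 3 carriers were thus higher on every probe set that reads them, with differences from 0.85 to 1.18. Slc7a9 (Entrez gene 30962), the cystine and cationic amino acid carrier of kidney and gut, read 5.24 and 6.65 on its only probe set, a difference of 1.41. The lower of these values was under the threshold, and the gene counts as expressed only through the array where it reads higher, so its place among the 2-fold genes is a description that the filter partly fixed.

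The other 6 light chains were below the threshold on both arrays. Slc7a11 (xCT), which imports cystine in exchange for glutamate, read 4.81 and 4.56 on one probe set and 4.31 and 3.78 on the other. Slc7a8 (LAT2) came nearest to the threshold at 5.92 and 5.82, and Slc7a10, Slc7a12, Slc7a13 and Slc7a15 read between 3.67 and 5.16 on their brightest probe sets. On their brightest probe sets these 6 genes differed by -0.25 to 0.49, and the second probe set of Slc7a11 by -0.53.

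Among the CAT subfamily, Slc7a1 and Slc7a3 were higher and Slc7a2 was lower on the array labelled Mof null. Slc7a1 (CAT1, Entrez gene 11987), the widely expressed arginine and lysine importer, read 11.52 and 12.21, 1.61-fold higher, and 10.33 and 11.08 on a second expressed probe set. Slc7a3 (CAT3, Entrez gene 11989) read 11.17 and 11.87 on its only probe set, 1.62-fold higher. Relative to the pluripotency median these genes lay at 0.07 and 0.08. Slc7a2 (CAT2), the inducible arginine carrier of macrophages and liver, read 7.77 and 7.27, a difference of -0.50. Its 3 other probe sets were below the threshold. Slc7a4, for which no transport of amino acids has been established, read 6.87 and 6.90, a difference of 0.03 that turned negative after centring, trend correction and scaling to the pluripotency markers. Slc7a14 was below the threshold. Over the family, 7 of 8 expressed Slc7 genes lay above 0 (background 56.7%), with a median of 0.77. Among the 7 was Slc7a9, which passed the level threshold on the array labelled Mof null alone. The median stayed above 0 at 0.16 on the pluripotency scale, and was 0.37 over all 15 Slc7 genes with no level filter.

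**Figure D2:**
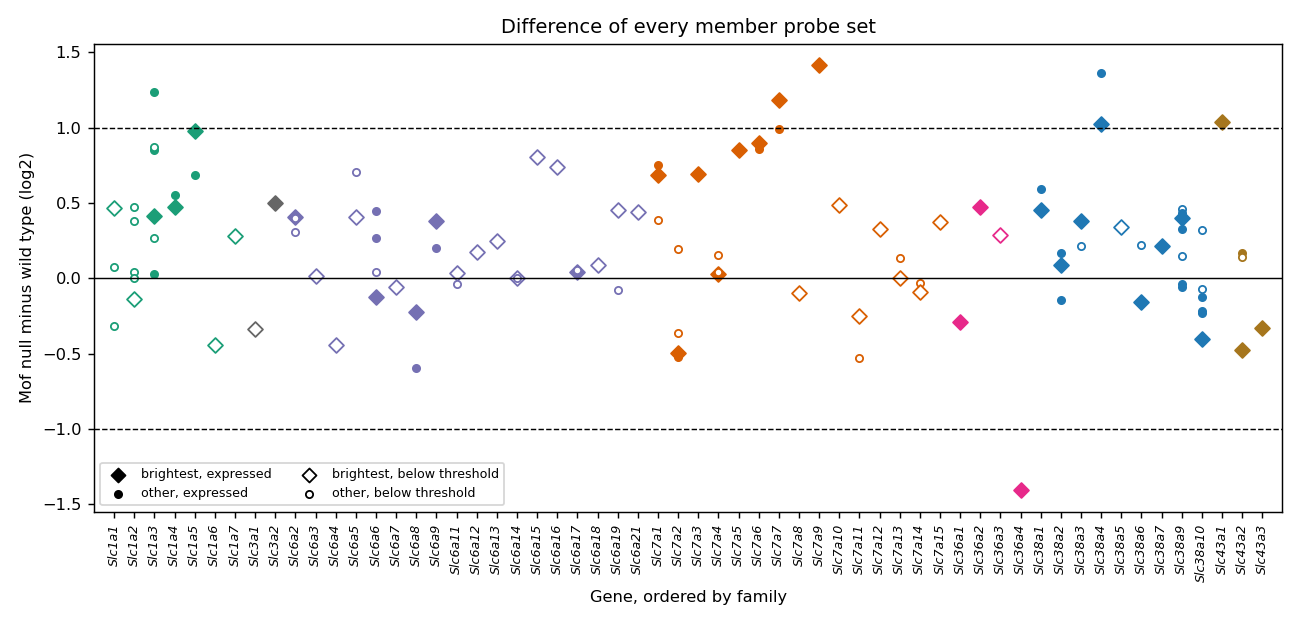
Difference (log2, Mof null minus wild type, y axis) of all 118 member probe sets by gene (x axis, coloured by family). Diamonds are the brightest probe set of a gene, filled marks are expressed, and dashed lines mark 2-fold; the filled marks of Slc7a5, Slc7a6, Slc7a7 and Slc7a9 lie between 0.85 and 1.41, and no probe set below the threshold is past 2-fold.

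In the Slc1 family the neutral amino acid exchangers were higher, and most glutamate carriers were not expressed. Slc1a5 (ASCT2, Entrez gene 20514), the main glutamine exchanger of many growing cells, read 9.63 and 10.61, 1.97-fold higher, just under the 2-fold line, and 6.90 and 7.59 on its second probe set. Slc1a4 (ASCT1), which exchanges alanine, serine and cysteine, read 7.91 and 8.39, 1.39-fold higher, and its 3 probe sets lay between 0.47 and 0.55. The difference of Slc1a5 stayed above 0 relative to the pluripotency median (0.37), and that of Slc1a4 did not (-0.14).

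The glutamate carrier Slc1a3 (EAAT1, Entrez gene 20512), known from astrocytes, was read unevenly by its probe sets. Its brightest probe set gave 6.64 and 7.05, a difference of 0.41, and this probe set is of a kind (_x_at) that can match several transcripts. The next read 6.10 and 7.33, 1.23 higher and past 2-fold, and the others that were expressed gave 0.85 and 0.03. All 4 expressed probe sets lay above 0, but they disagreed on size by more than the pooled probe set SD, and without probe sets of that kind Slc1a3 would count as 2-fold higher. Slc1a1, Slc1a2, Slc1a6 and Slc1a7, the other glutamate carriers, were below the threshold. The family median of 0.47 over 3 expressed genes was -0.14 on the pluripotency scale.

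System A carriers of the Slc38 family, which import glutamine, alanine and other small neutral amino acids with sodium, differed from gene to gene. Slc38a4 (SNAT4, Entrez gene 69354), an imprinted gene, read 10.28 and 11.31, 2.04-fold higher, and its second probe set read 9.48 and 10.84, a difference of 1.36. On its brightest probe set it was under 2-fold after centring (0.92), trend correction (0.89) and scaling to the pluripotency markers (0.41). Slc38a1 (SNAT1) read 10.86 and 11.32, 1.37-fold higher, and its second probe set differed by 0.59. Slc38a2 (SNAT2, Entrez gene 67760), the member known to be induced by amino acid shortage, read 12.30 and 12.38, a difference of 0.09 that turned negative after centring, trend correction and scaling to the pluripotency markers. Its other probe sets differed by -0.15 and 0.17. These 3 genes follow each other among the protein-coding genes of chromosome 15, in the order Slc38a1, Slc38a2, Slc38a4, so the nearest neighbour of the gene past 2-fold differed by less than the spread between probe sets.

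Of the other Slc38 members, none was past 1.5-fold. The system N carrier Slc38a3 read 6.61 and 6.99, and the other system N carrier, Slc38a5, was below the threshold at 4.56 and 4.90. Slc38a9, the lysosomal arginine sensor of mTORC1, had 5 expressed probe sets between -0.06 and 0.43, and its brightest read 6.84 and 7.24. Slc38a7, a glutamine carrier, read 8.25 and 8.46, and Slc38a6 read 8.82 and 8.66. Slc38a10 read 11.57 and 11.17, a difference of -0.40, and all its 5 expressed probe sets lay between -0.41 and -0.13. The family median over 8 expressed genes was 0.30, and -0.32 relative to the pluripotency median.

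The Slc36 and Slc43 families held the strongest lower value and a higher one. Slc36a4 (PAT4, Entrez gene 234967), a high-affinity carrier of proline and tryptophan, read 8.68 and 7.27 on its only probe set, 2.65-fold lower, and 7.62% of all expressed genes had a lower difference. It stayed past 2-fold under all 8 settings tried that gave it a value. Slc36a1 (PAT1), the lysosomal proton-coupled carrier, read 7.72 and 7.43, a difference of -0.29, and Slc36a2 read 5.57 and 6.04, barely at the threshold. Slc36a3 was not expressed. The family median of -0.29 over 3 genes stayed below 0 under every scaling tried, and was -0.0032 over all 4 genes with no level filter.

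Slc43a1 (LAT3, Entrez gene 72401), a carrier of leucine and other large neutral amino acids, read 7.78 and 8.82 on its only probe set, 2.06-fold higher. The difference of 1.04 was under 2-fold after centring (0.94), trend correction (0.99) and scaling to the pluripotency markers (0.43). Slc43a2 (LAT4), with the same substrates, read 7.98 and 7.50 on its brightest probe set, a difference of -0.48, and 6.74 and 6.90 on another, so its probe sets did not share a direction. Slc43a3, a purine nucleobase carrier that is no amino acid transporter, read 7.25 and 6.92, a difference of -0.33. It is separated from Slc43a1 by 1 protein-coding gene on chromosome 2. The family median of -0.33 was therefore the value of a gene outside amino acid transport.

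The Slc6 family, the largest with 18 genes, had 5 expressed members, with differences from -0.22 to 0.41 on their brightest probe sets, all under 1.5-fold. Slc6a9 (GlyT1), a glycine carrier active in early embryos, read 8.38 and 8.76, a difference of 0.38. The taurine carrier Slc6a6 read 11.14 and 11.01, and its expressed probe sets ran from -0.13 to 0.45. The creatine carrier Slc6a8 read 10.42 and 10.19, and its second probe set 10.43 and 9.83, a difference of -0.59. The noradrenaline carrier Slc6a2 reached the threshold on 1 of 4 probe sets, at 6.93 and 7.34, and Slc6a17, a vesicular neutral amino acid carrier of neurons, read 6.44 and 6.48. The other 13, among them the dopamine, serotonin and GABA carriers, were below the threshold. Of these Slc6a15, a carrier of branched-chain amino acids and proline, came closest at 5.14 and 5.95, and the orphan Slc6a16 read 4.67 and 5.41. Over all 27 carriers below the threshold, differences ran from -0.44 to 0.80, and none was 2-fold. The family median of 0.04 turned negative with a stricter level filter (-0.13), after centring (-0.07), after trend correction (-0.06) and on the pluripotency scale (-0.57).

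**Figure D3:**
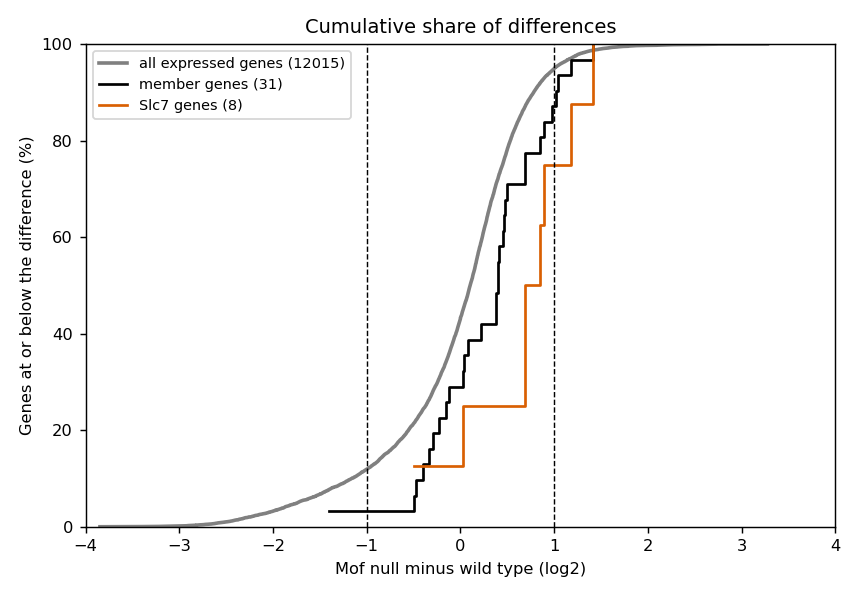
Cumulative share of genes (%, y axis) at or below a given difference (log2, Mof null minus wild type, x axis) for all 12015 expressed genes, the 31 expressed carriers and the 8 expressed Slc7 genes, with dashed lines at 2-fold. The carrier curve runs to the right of the background curve over most of its range, with medians of 0.40 and 0.10, and the Slc7 curve further right with a median of 0.77.

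Probe sets of a carrier mostly shared a direction. Of 15 carriers with several expressed probe sets, 11 had all of them on the same side of 0, and Slc6a6, Slc38a2, Slc38a9 and Slc43a2 had probe sets on both sides. Of all 57 expressed member probe sets, 40 lay above 0 and 17 below, 6 passed 2-fold upward and 1 downward. The same shares over all expressed probe sets were not computed. Over all 12015 expressed genes, by brightest probe set, 56.7% lay above 0, 5.09% were 2-fold higher and 11.9% 2-fold lower. On their brightest probe sets, 18 carriers were higher and 4 lower by more than the pooled probe set SD of 0.33, and 9 lay within it. Neither these counts nor those of shared direction were made over all expressed genes.

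Other genes of amino acid transport and sensing were compared as lists. Of 18 expressed amino acid carriers outside the 7 families and their accessory genes, none was 2-fold higher (background 5.09%) and 1 was 2-fold lower (background 11.9%), with a median of 0.14. That gene was Slc15a3, a lysosomal peptide carrier of immune cells, at 7.63 and 6.09. The mitochondrial aspartate-glutamate carrier Slc25a13 was 1.98-fold higher, the peptide carrier Slc15a2 1.94-fold and the mitochondrial ornithine carrier Slc25a15 1.79-fold.

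The amino acid stress list had 29 expressed genes, of which 2 passed 2-fold upward (background 5.09%) and 2 downward (background 11.9%), around a median of 0.32. The higher genes were Stc2, a secreted glycoprotein gene, at 2.58-fold and the alanine transaminase gene Gpt2, at 8.66 and 9.66. The lower genes were the transcription factor genes Cebpb, at 2.75-fold, and Atf5, at 2.06-fold. Atf4 itself read 12.29 and 12.52, and its target Asns, the asparagine synthetase gene, read 12.22 and 12.64 (both chosen after their values were seen). Neither was past 1.5-fold, but 5 of the 29 genes were higher at 1.5-fold (background 17.3%) and 5 were lower (background 19.2%). The list's genes lay on both sides of 0, 19 above (65.5%, background 56.7%) and 10 below.

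The mTORC1 list had 35 expressed genes with a median of 0.02, a value that turned negative after centring, trend correction and scaling to the pluripotency markers. None was 2-fold higher (background 5.09%), and 1 was 2-fold lower (background 11.9%), the leucine sensor family gene Sesn3, at 2.17-fold. The Rag GTPase gene Rragc, the arginine sensor family gene Castor2 and the mTORC1 inhibitor gene Akt1s1 were lower by 1.93-fold, 1.93-fold and 1.92-fold. Of the 35 genes, 18 lay above 0 (51.4%, background 56.7%) and 16 below, and the highest difference was 0.92. At 1.5-fold, 3 were higher (background 17.3%) and 4 lower (background 19.2%).

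Glutathione synthesis, which uses cysteine derived from cystine, and the Nrf2 pathway were taken as 1 list, which had a median of -0.34 over 12 expressed genes, 8 of them below 0. The share above 0 was 33.3%, where the background was 56.7%. At least 2-fold lower were 2 of the 12 (background 11.9%), Srxn1, which repairs oxidized peroxiredoxins, at 2.16-fold and the glutathione synthetase gene Gss at 2.11-fold. None was 2-fold higher (background 5.09%). The 4 genes above 0 included Gclc (9.97 and 10.37) and Gclm (11.28 and 11.43), which also act in glutathione synthesis (both chosen after their values were seen). Hmox1 and Nqo1, known Nrf2 targets, were lower by 1.99-fold and 1.94-fold. The fibroblast and macrophage medians on the same arrays were -1.93 and -2.09, and their part in the lower values of these lists was not tested.

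**Figure D4:**
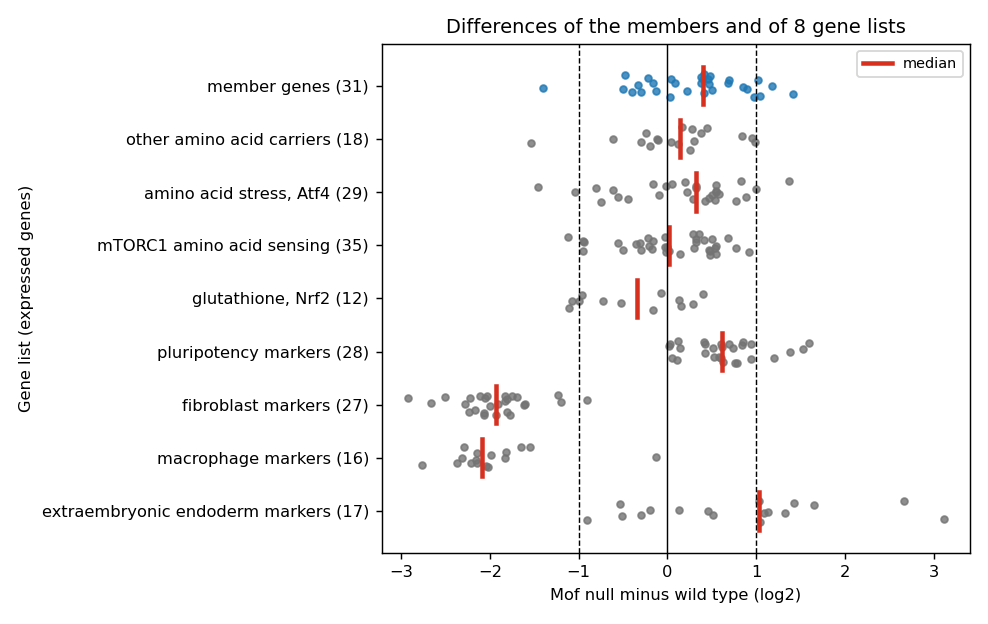
Difference (log2, Mof null minus wild type, x axis) of each expressed gene of the carriers and of 8 gene lists (y axis, number of genes in brackets), with a red bar at the median and dashed lines at 2-fold. The carrier points lie from -1.41 to 1.41 around a median of 0.40, between the pluripotency markers (0.61) and the mTORC1 list (0.02), and the fibroblast and macrophage markers lie far to the left.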

How the data were processed

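Total RNA of 1 culture per genotype was measured on 1 array each, and the authors deposited a log2 value per probe set, which the submitters' processing notes credit to RMA, affy and R 2.10.0. RMA corrects background, quantile-normalizes and summarises probes, so a shift of most transcripts cannot be seen. That the scale is log2 follows from the range, 2.77 to 14.7 over both arrays. For arrays, their number limits the precision, here 1 per genotype, and p-values were not computed.

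Gene names came from the platform's annotation table: of 45101 probe sets, 34958 had 1 gene symbol, 932 several and 9211 none. The 34945 with 1 symbol and 1 Entrez ID were used, and 1 probe set naming a member and another gene and 4 antisense probe sets were left out. A gene took its brightest probe set by the mean of both arrays. The RefSeq table (GRCm38.p6) held all 58 members and was used for names and gene order. The 3 promoter motifs were searched on both strands of the 250 bases before each start. All member genes are accounted for, and of each list up to 4 expressed genes with the largest absolute difference are named. A few other list genes are named for the level threshold, or were chosen after their values were seen. Of the names in the 8 lists, 9 were not found and are not analysed here. The members and lists were chosen with earlier results of these data known. Counting and trend correction were tested on simulated data. Alternatives changed the probe set of a gene, the level filter, centring, trend with level (lowess, span 0.3), quantile normalization, scaling to the pluripotency list and the fold threshold. Python 3.11.15, numpy 2.4.6, pandas 2.3.3, statsmodels 0.14.6 and matplotlib 3.10.9 were used.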

Additional observations from a re-analysis of the deposited data

How the results depend on the processing

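With 1 array per genotype no replicate could be left out. No paired analysis was possible because each genotype has 1 sample and no test was run. A median was taken to have moved when it differed by at least the probe set SD of 0.33, and a count when it differed by more than 1.5 times. Leaving out the members expressed on 1 array only, an alternative chosen after seeing the data, gave 3 carriers 2-fold higher, 1 lower and a median of 0.38. No carrier past 2-fold changed sign under any setting that gave it a value. The number of carriers at least 2-fold higher, 4 as deposited, was 2 after centring on the median gene and after trend correction, where Slc7a7 and Slc7a9 remained, 9 at 1.5-fold and 0 at 4-fold. Over all 12015 expressed genes, 611 were 2-fold higher as deposited, 449 after centring and 472 after trend correction. No carrier was 4-fold lower, so that count was 0. Of these 12015 genes, 2084 were higher and 2303 lower at 1.5-fold, and 35 and 389 at 4-fold. With the level filter at percentile 75, 347 and 926 of the 7691 genes kept were 2-fold higher and lower. In the main setting these were 611 and 1429 of 12015. Relative to the pluripotency median, 0 carriers were 2-fold higher and 4 lower (Slc36a4, Slc38a10, Slc43a2 and Slc7a2), against 88 and 2956 of all expressed genes. On that scale the members' median was -0.21, and the family medians were -0.14 (Slc1), -0.57 (Slc6), 0.16 (Slc7), -0.91 (Slc36), -0.32 (Slc38) and -0.94 (Slc43). The list medians there were -0.47 (other carriers), -0.29 (amino acid stress), -0.59 (mTORC1), -0.95 (glutathione), 0 by construction (pluripotency), -2.54 (fibroblast), -2.71 (macrophage) and 0.41 (extraembryonic endoderm). The Slc1 median was 0.98 without _s_at and _x_at probe sets, and 0.98 at percentile 75, where 1 gene of the family was left, as it was for Slc36 (-1.41) and Slc43 (1.04). The Slc7 median was 0.37 with no level filter, which adds the 7 genes below the threshold. The extraembryonic endoderm median of 1.03 was 0.66 with the mean of all probe sets, 0.52 without _s_at and _x_at probe sets and 0.13 at percentile 75; the cause was not tested.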
